A study of Arabidopsis thaliana with 4 samples.

Results

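The genes described here are the CCA1/LHY and REVEILLE (RVE) family of clock MYB genes in Arabidopsis thaliana, taken by locus identifier from the deposited expression table. The family list held 10 genes, CCA1, LHY and RVE1 to RVE8, and all 10 were found among the 32548 genes of the table and passed the filter on low values, which left 22439 genes. RNA was sequenced from seedlings aged 2 weeks, grown on plates of MS medium under a long-day cycle, with 16 h of light at 23 °C and 8 h of dark at 22 °C. The groups were wild type (the Col-0 accession, n = 2 libraries) and a mutant given as uba2c(-/-) (n = 2 libraries), with no transgene or treatment named for either, and no source used here gives the allele or lesion behind the mutant label. UBA2C encodes a protein that binds RNA; by its title, the study concerned how UBA2C affects flowering at ambient temperature through transcription of FLM, a floral repressor gene. Transcripts of these clock genes cycle over the day and no source used here gives the hour of harvest, so a difference in harvest time cannot be told apart from one of genotype.

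The plant circadian clock is a set of transcription factors that switch each other on and off over the day. CCA1 and LHY encode single-MYB proteins made around dawn that bind the evening element, a short promoter sequence, and hold evening genes such as TOC1, PRR5 and GI down in the morning. RVE8, RVE4 and RVE6 bind the same element but act as activators, with LNK proteins as partners, and raise evening genes in the afternoon. RVE1 links the clock to auxin, a growth hormone, through the auxin synthesis gene YUC8, and RVE2 (CIR1) and RVE7 (EPR1) are its closest relatives.

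The promoters of the family are shown first because many of its members shared a short sequence next to the gene start. In the TAIR10.1 build, the protein-coding gene CCA1 (AT2G46830) spans bases 19245591 to 19248915 of chromosome 2 (plus strand), and LHY (AT1G01060) spans 33365 to 37871 of chromosome 1 (minus strand). The 250 bases upstream of each annotated gene start, from chr2:19245341-19245590 (plus strand) and chr1:37872-38121 (minus strand), read as follows. Capitals mark the G-box (CACGTG), a site for light-related and other bZIP and bHLH factors, and the TCP site (GGNCCCAC), of the kind that the repressor CHE binds in the CCA1 promoter.
CCA1: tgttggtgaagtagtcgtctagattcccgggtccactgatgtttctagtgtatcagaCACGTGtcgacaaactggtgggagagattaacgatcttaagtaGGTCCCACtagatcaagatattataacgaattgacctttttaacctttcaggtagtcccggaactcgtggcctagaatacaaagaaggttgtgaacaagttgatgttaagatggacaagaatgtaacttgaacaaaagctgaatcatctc
LHY: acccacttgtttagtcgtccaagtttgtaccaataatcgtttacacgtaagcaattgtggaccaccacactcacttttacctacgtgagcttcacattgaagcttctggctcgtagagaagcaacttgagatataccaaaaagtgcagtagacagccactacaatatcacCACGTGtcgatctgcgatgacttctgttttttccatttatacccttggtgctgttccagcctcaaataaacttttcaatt

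A G-box lay within 500 bases of the gene start in 6 of the 10 members, against 9.35% of 27443 promoters of protein-coding genes of the table searched on both strands over the same length. It stood 193 bases upstream in CCA1, 80 in LHY, 111 in RVE1, 163 in RVE2, 84 in RVE3 and 52 in RVE5. The 30 bases around it are given here 5′ to 3′ along each gene's strand, with the G-box in capitals, so that its flanks can be compared. The windows of RVE3, RVE4 and RVE5 lie partly in a neighbouring gene.
CCA1, chr2:19245386-19245415, plus strand: tagtgtatcagaCACGTGtcgacaaactgg
LHY, chr1:37934-37963, minus strand: ctacaatatcacCACGTGtcgatctgcgat
RVE1, chr5:5693086-5693115, minus strand: gagaaagagcgaCACGTGgcaaagatggac
RVE2, chr5:14753234-14753263, minus strand: gaagaaatcctcCACGTGtcattagcatct
RVE3, chr1:190312-190341, plus strand: acgatcgtattcCACGTGgcaatttatgtg
RVE5, chr4:535134-535163, plus strand: acgagaccctaaCACGTGtaaaggaaacaa

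In CCA1, LHY and RVE2 the G-box ran on into ACGTGTC, and in RVE1 and RVE3 into ACGTGGC. Both are core forms of the abscisic acid response element, a site for bZIP factors of drought signalling, and they were searched only after these stretches had been seen. Counting either form on both strands within 500 bases, 6 of the 10 members held one (the same CCA1, LHY, RVE1, RVE2 and RVE3, with RVE6 in place of RVE5), against 9.10% of all promoters. The evening element (AAAATATCT) was found in RVE7 alone among the members, and a CCA1-binding site (AAAAATCT) in LHY, RVE2 and RVE6, against 4.44% and 12.48% of all promoters. RVE4 and RVE8 held no evening element, CCA1-binding site, G-box or TCP site. These matches describe letters in a window and say nothing of which factor binds there.

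The family as a group stood higher in the mutant. Of the 10 members 7 rose, 0 fell and 3 did not pass (limma, false discovery rate 0.05), where 17.4% of all genes tested rose and 34.8% changed in either direction. edgeR's quasi-likelihood test on the recovered reads also called 7 members, all higher, where it called 45.5% of its genes, 22.6% as higher. RVE3, LHY, RVE2 and RVE1 showed the larger changes, between 1.58-fold and 2.96-fold, and CCA1, RVE4 and RVE8 smaller ones, between 1.203-fold and 1.37-fold. The median log2 change was 0.36 over the members and −0.00 over all genes tested. The values of the 2 genotypes did not overlap for any of the 10, higher in the mutant for 9 and lower for RVE6, where 68.1% of all genes tested were separated in this way, 33.6% as higher and 34.5% as lower, so that separation alone is common in these data.

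**Figure D1:**
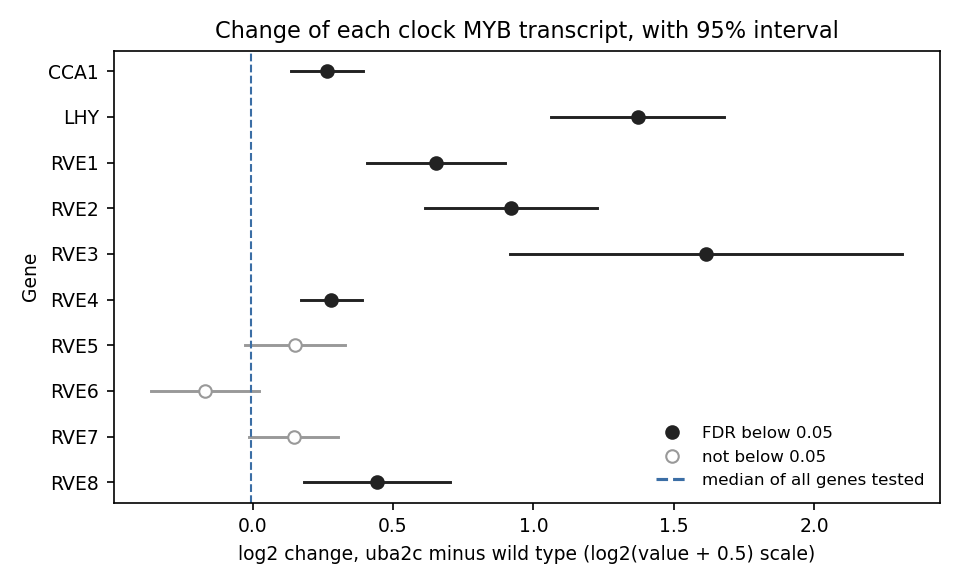
Log2 change of each member (uba2c minus wild type, n = 2 libraries each, points) with its 95% interval (lines), filled where the limma adjusted p was below 0.05, and a dashed line at the median of all genes tested. LHY and RVE3 lie farthest to the right, at 1.37 and 1.62, and the intervals of RVE5, RVE6 and RVE7 reach across 0.

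The libraries were of like depth, with 19720586 to 19847651 reads recovered from the deposited values, which are read counts per gene adjusted to a common library size. The UBA2C transcript itself was at 799 and 771 in wild type and at 209 and 234 in the mutant (limma adjusted p = 2.64e-06), lower but not absent. Its exons overlap those of AT3G15020 on the same strand over 277 bases. AT3G15020 was at 585 and 609 in wild type and at 420 and 411 in the mutant (log2 change −0.52, limma adjusted p = 0.000416). The part of shared reads in the UBA2C value was not tested. Leaf markers were abundant in every library, as fits seedlings, with a summed value of 538986 and 547524 for 4 genes in wild type and 514883 and 564205 in uba2c; 2 of the 4 rose and 2 fell. Root markers were present too, with the root hair genes PRP3, EXPA7, COBL9 and LRX1 lower in the mutant. Of the 6 root markers 4 fell and 1 rose, where 17.4% of all genes tested fell and 17.4% rose. Their sum went from 3020 and 3451 to 1540 and 1643. SCR was higher by 0.22 on the log2 scale, a call lost in 8 of 21 alternatives, among them DESeq2 (adjusted p = 0.135). SHR did not pass (0.07). Flower and seed markers were low, at a sum of 41 and 48 against 13 and 16, with the seed storage gene CRU3 at 1 or 0. Of the 3 tested, 2 fell and 0 rose. AP3 went from 17.4 and 21.3 to 1.9 and 2 (limma adjusted p = 0.00109, DESeq2 adjusted p = 0.00487). AG fell too (limma adjusted p = 0.0302), but not in DESeq2 (adjusted p = 0.152), and PI did not pass. Fewer cells of a type and less RNA per cell cannot be told apart in RNA from seedlings, and the part of these marker shifts in the family's values was not tested.

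LHY and CCA1 are the dawn repressors at the core of the clock, and LHY changed far more. LHY stood at 120 and 94.8 in the wild type libraries and at 263 and 291 in the mutant libraries. Both mutant values were more than double the higher wild type value. The mean went from 108 ± 18.1 to 277 ± 19.8 (SD, n = 2 each), a log2 change of 1.37 (SE 0.13, limma adjusted p = 0.000181). CCA1 stood at 1001 and 953 in wild type and at 1129 and 1223 in the mutant. The groups lay close together without overlap, with means of 977 ± 33.9 and 1176 ± 66.0 (SD, n = 2 each). The log2 change was 0.27 (SE 0.06, 95% interval 0.14 to 0.39, limma adjusted p = 0.00761).

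The ratio between these paralogs was higher in both mutant libraries than in either wild type library. The log2 ratio of LHY to CCA1 was −3.05 and −3.32 in wild type and −2.10 and −2.07 in the mutant. LHY was at 0.11 times the CCA1 value in wild type and at 0.24 times in uba2c, a difference of 1.11 on the log2 scale with no overlap. With 2 libraries against 2 the exact two-sided permutation test over samples gives p = 0.333, the smallest it can reach, so the test cannot separate the genotypes at this size. None of the 2330 exonic 50-base words of CCA1 or the 2980 of LHY had another exact copy in the genome, so single-end reads of 50 bases can tell the pair apart. No exon of another annotated gene overlaps either.

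Among the activators of the RVE8 group, RVE4 and RVE8 rose and RVE6 did not. RVE8 (AT3G09600, chromosome 3, 2946239 to 2949017), which promotes evening gene expression, was at 196 and 195 in wild type and at 295 and 239 in the mutant. The wild type libraries were nearly equal and the mutant libraries spread more widely, with means of 195 ± 0.68 and 267 ± 39.5 (SD, n = 2 each). Its log2 change was 0.44 (SE 0.11, limma adjusted p = 0.0179). The size of that change rested in part on the first mutant library: without it the change was 0.29, and edgeR's quasi-likelihood test on recovered reads no longer called it (adjusted p = 0.0839, with 0.000163 to 0.117 over all alternatives). With every gene that had a read kept in the limma fit, the call was also lost (adjusted p = 0.0537).

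RVE4 (AT5G02840, chromosome 5, 648648 to 651979), which acts with RVE8, was at 1678 and 1616 in wild type and at 2067 and 1936 in the mutant. The groups did not overlap, and the log2 change was 0.28 (SE 0.05, limma adjusted p = 0.00272). RVE6 (AT5G52660, chromosome 5, 21359001 to 21362273), the third of these activators, was at 287 and 294 in wild type and at 246 and 271 in the mutant. It was thus the single member with both mutant values below both wild type values, yet its log2 change of −0.17 did not pass (95% interval −0.36 to 0.02, limma adjusted p = 0.156). The log2 ratio of RVE6 to RVE4 went from −2.55 and −2.46 to −3.07 and −2.83, a difference of −0.45 without overlap (exact two-sided permutation p = 0.333, the smallest possible).

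RVE3 and RVE5 belong to the same group and are known for a weaker effect on the pace of the clock. RVE3 (AT1G01520, chromosome 1, 190408 to 192436) showed the largest fold change in the family and the lowest level. Its value was 29.2 and 15.4 in wild type and 66.4 and 65.7 in the mutant, from 30 and 16 reads and from 69 and 67 reads. The wild type libraries lay far apart and the mutant libraries were nearly equal and higher than both, and the means were 22.3 ± 9.74 and 66.1 ± 0.48 (SD, n = 2 each). The log2 change was 1.62, with a wide 95% interval of 0.92 to 2.31 (SE 0.30, limma adjusted p = 0.00461). It was 1.17 without the second wild type library and 2.06 without the first, and both passed in edgeR and limma. RVE3 shares 65 exonic bases on the same strand with AT1G01510, a gene at a far higher level. That gene was at 794 and 786 in wild type and at 934 and 968 in the mutant, a log2 change of 0.27. No source used here says how reads on shared bases were counted, so the RVE3 value is uncertain.

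RVE5 (AT4G01280, chromosome 4, 535198 to 538098) was at 301 and 288 in wild type and at 315 and 339 in the mutant, a log2 change of 0.15 that did not pass (95% interval −0.03 to 0.33, limma adjusted p = 0.165). Its exons overlap 681 bases of AT4G01290 on the other strand, a gene at 2267 and 2370 in wild type that fell by 0.23 on the log2 scale. No source used here says whether reads were counted by strand, so the RVE5 value is uncertain.

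In the RVE1 group, RVE1 and RVE2 rose and RVE7 did not pass. RVE1 (AT5G17300, chromosome 5, 5690225 to 5692992), which promotes growth through auxin, was at 165 and 174 in wild type and at 289 and 245 in the mutant. Both mutant libraries were well above wild type, at 267 ± 31.1 against 169 ± 6.26 (SD, n = 2 each), a log2 change of 0.65 (SE 0.11, limma adjusted p = 0.00239). RVE1 overlaps AT5G17305 on the other strand over 225 bases, and that gene was at 0 in all 4 libraries. That 0 does not settle how reads on the shared bases were counted, so the RVE1 value is uncertain too. RVE2 (AT5G37260, chromosome 5, 14751344 to 14753088), whose overexpression is known to disturb rhythms, was at 91.2 and 78.4 in wild type and at 169 and 153 in the mutant. Its mean went from 84.8 ± 9.04 to 161 ± 11.01 (SD, n = 2 each), a log2 change of 0.92 (SE 0.13, limma adjusted p = 0.00135).

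RVE7 (AT1G18330, chromosome 1, 6305814 to 6308243), named EPR1 for its early response to phytochrome, was at 374 and 357 in wild type and at 396 and 412 in the mutant. The groups were close and the log2 change of 0.15 did not pass (95% interval −0.01 to 0.30, limma adjusted p = 0.136). Of its 1781 exonic 50-base words, 58.8% have another exact copy in the genome, in AT3G10113 and AT3G10110. No source used here says how reads with several matches were counted. AT3G10113, the near copy of RVE7 (RVE7L below), had no read in 3 libraries and 1 in the other, so no fold is given, and the RVE7 value is uncertain to the extent that such reads were left out or split.

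Levels were compared between genes as the deposited value per kilobase of exon, over the full exon length. RVE7 stands too low in this order if reads with several matches were left out, as 58.8% of its exonic 50-base words have another copy. Its place below CCA1 is then not settled. The place of RVE5 is uncertain too, for its overlap with a gene on the other strand. RVE4 led in both genotypes, at 782 ± 20.6 in wild type and 950 ± 43.8 in uba2c (SD, n = 2 each), followed by CCA1 at 359 ± 12.4 and 432 ± 24.2. LHY and RVE3 came last, at 31.4 ± 5.28 and 14.0 ± 6.13 in wild type and 81.1 ± 5.79 and 41.6 ± 0.30 in uba2c. In wild type the order between them was RVE7, RVE6, RVE5, RVE2, RVE1 and RVE8, of which RVE7 and RVE6 overlapped in their 2 libraries, as did RVE2, RVE1 and RVE8. In the mutant RVE2 stood next after RVE7. RVE2, RVE6, RVE5 and RVE1 each overlapped the next in order, down to RVE8, which did not overlap LHY below it. From RVE2 to RVE8 the mean levels lay between 114 and 164 per kilobase. The summed value of the 10 genes was 4242 and 4065 in wild type and 5236 and 5174 in the mutant. LHY made up 2.84% and 2.33% of that sum in wild type and 5.03% and 5.63% in uba2c, while CCA1 stayed between 21.6% and 23.6% over the 4 libraries.

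**Figure D2:**
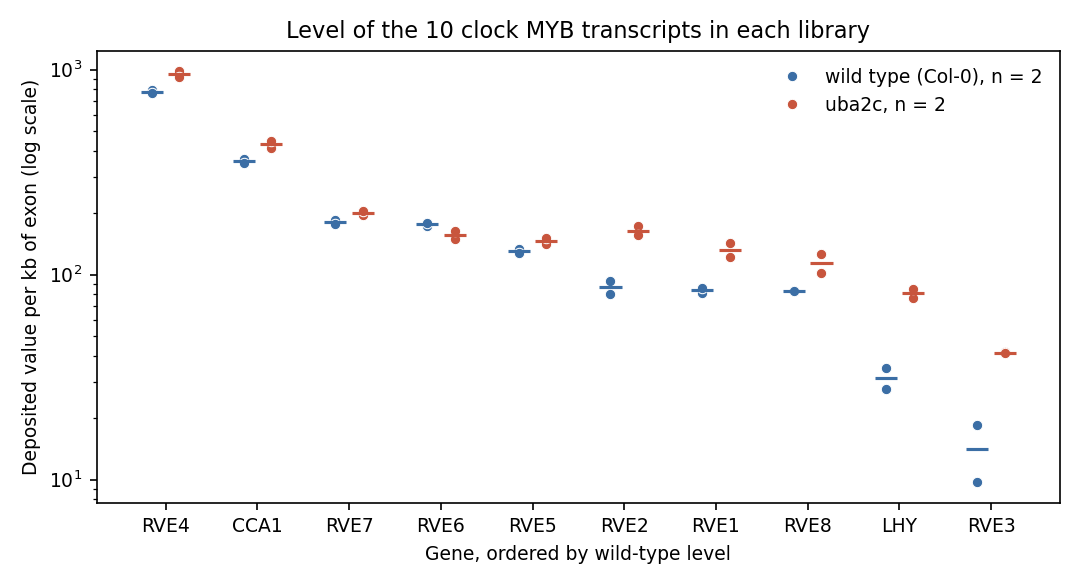
Deposited value per kilobase of exon (log axis) of each member in each library, with wild type in blue, uba2c in red and bars at the mean of 2 libraries. The mutant points of LHY, RVE1, RVE2 and RVE3 stand clear of wild type, while those of CCA1, RVE4, RVE5 and RVE7 lie just above it and those of RVE6 just below.

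Evening genes that this family acts on moved both ways. Of 11 such genes 3 rose, 5 fell and 3 did not pass, with a median log2 change of −0.11, where 17.4% of all genes tested rose and 17.4% fell. PRR5, a repressor of CCA1 and LHY, fell from 1743 and 1955 to 766 and 804 (log2 change −1.23, limma adjusted p = 5.97e-06). FKF1, a blue-light receptor of the photoperiod pathway, fell from 1097 and 1018 to 455 and 468 (−1.19, limma adjusted p = 5.11e-06). BOA, a relative of the evening complex protein LUX, rose from 62.9 and 69.8 to 166 and 164 (1.31, limma adjusted p = 0.000187). BOA shares 1679 of its 3655 exonic bases with AT5G59580 on the other strand. Its value is uncertain if reads were counted without regard to strand. COR27, a cold-regulated clock gene, rose from 236 and 243 to 424 and 396 (0.77, limma adjusted p = 0.000184).

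The further members of that list were smaller in change or did not pass. GI, ELF4 and GRP7 fell by 0.38, 0.56 and 0.39 on the log2 scale. TOC1, which closes the loop with CCA1 and LHY by repressing them, was at 1356 and 1256 in wild type and at 1503 and 1443 in uba2c (0.17, limma adjusted p = 0.0326), a call lost in 8 of 21 alternatives, among them DESeq2 (adjusted p = 0.0869, with 0.0018 to 0.292 over all). ELF3, LUX and COR28 did not pass (log2 changes −0.01, 0.05 and −0.11).

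An evening element lay within 500 bases upstream of 7 of these 11 genes, TOC1, PRR5, LUX, BOA, FKF1, GRP7 and COR27, against 4.44% of all promoters. These genes were listed as targets of a family that binds this element, so a high share follows from how the list was chosen. The 30 bases around 1 such element are shown for the 4 genes of that list with the smallest p, 2 lower and 2 higher in the mutant, to show that the same letters stand upstream of genes that moved in opposite directions. Capitals mark the element, read as AAAATATCT or as its reverse complement AGATATTTT.
PRR5 (lower), chr5:8358714-8358743, minus strand: gattttttctAGATATTTTcttttctccac
FKF1 (lower), chr1:25508443-25508472, plus strand: tgagtaggctAGATATTTTctcggaatatc
BOA (higher), chr5:24003835-24003864, plus strand: tgcgggtaaaAGATATTTTagattatctag
COR27 (higher), chr5:17199911-17199940, minus strand: gcagttgaagAAAATATCTttgatattttt

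Of 8 genes known to act on CCA1 and LHY, 2 rose, 2 fell and 4 did not pass, with a median log2 change of 0.08. PRR5 and TOC1, described above as repressors of both genes, are counted with the evening genes and not among these 8. The counts for the 8 are near the shares over all genes tested, 17.4% in each direction. CHE, a TCP protein that represses CCA1, fell from 1566 and 1462 to 813 and 937 (log2 change −0.79, limma adjusted p = 0.000118). PRR9, a morning repressor of both genes, went from 386 and 330 to 275 and 281 (−0.36, limma adjusted p = 0.0172), but DESeq2 lost the call (adjusted p = 0.0584), and it was lost in 6 of 21 alternatives in all, with adjusted p between 9.64e-05 and 0.242. PRR9 shares 41.1% of its exonic 50-base words with AT2G46670, so its value is uncertain. LWD1, a WD-repeat activator of CCA1, rose from 562 and 578 to 846 and 783 (0.51, limma adjusted p = 0.000432). TCP20, which acts with LWD1, rose from 156 and 176 to 245 and 212 (0.46, limma adjusted p = 0.0154), a call lost in 4 of 21 alternatives, among them DESeq2 (adjusted p = 0.0512, with 0.000346 to 0.195 over all). PRR7, TCP22, LWD2 and FHY3 did not pass, with log2 changes of −0.03 to 0.13.

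The LNK coactivators, which bind RVE8 and RVE4, changed little. Of the 4 genes 3 rose and 0 fell, with a median log2 change of 0.18, where 17.4% of all genes tested rose. LNK4 rose from 728 and 672 to 837 and 834 (log2 change 0.26, limma adjusted p = 0.0101), LNK3 by 0.23 and LNK2 by 0.13 (limma adjusted p = 0.0294 and 0.0291), while LNK1 was at −0.06 and did not pass. DESeq2 kept LNK4 alone (adjusted p = 0.0376), with 0.0901 for LNK3 and 0.108 for LNK2. Without the first wild type library the LNK3 change was 0.144 in limma and did not pass. The calls of LNK4, LNK3 and LNK2 were lost in 3, 7 and 8 of 21 alternatives, with adjusted p of up to 0.175, 0.291 and 0.161. Among the 7 subunits of casein kinase CK2, which phosphorylates CCA1, 2 rose and 0 fell, where 34.8% of all genes tested changed, so the count is no larger than that share: CKB3 by 0.26 and CKA1 by 0.21 on the log2 scale (limma adjusted p = 0.00758 and 0.0192), lost in 2 and 4 of 21 alternatives with adjusted p of up to 0.0993 and 0.143. CKA2 (0.11) and CKA3 (−0.19) did not pass (limma adjusted p = 0.0903 and 0.0948). Each was called in 3 of 21 alternatives, CKA2 as higher and CKA3 as lower in the mutant.

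Genes that family members are known to control moved both ways. Of 10 such output genes 4 rose, 5 fell and 1 did not pass, where 17.4% of all genes tested rose and 17.4% fell. Without either wild type library limma called 7 of them in place of 9. ERF53 and ERF54, ethylene response factor genes that RVE4 and RVE8 turn on in heat, rose from 14.5 and 23.3 to 149 and 153 and from 8.7 and 11.7 to 74.9 and 87.4 (log2 changes 3.005 and 2.95, limma adjusted p = 6.35e-05 and 9.14e-05). YUC8, the auxin synthesis gene downstream of RVE1, rose from 40.7 and 41.7 to 145 and 112 (1.61, limma adjusted p = 0.000308). The cold regulators CBF1, CBF2 and CBF3, which CCA1 and LHY are known to raise, all fell, CBF3 from 248 and 259 to 54.8 and 55.9 (−2.18, limma adjusted p = 8.33e-06) and CBF2 from 394 and 321 to 108 and 120 (−1.64, limma adjusted p = 4.15e-05). The light-harvesting genes LHCB1.1, LHCB1.2 and LHCB1.3, of which CCA1 was first found to bind the last, moved by 0.18, −0.30 and −0.18, and between 10.6% and 20.5% of their exonic 50-base words have another exact copy in the genome, so their separate values are uncertain. The calls of LHCB1.1 and LHCB1.3 were each lost in 4 of 21 alternatives, with adjusted p of up to 0.0837 and 0.177. The GC and length correction brought LHCB1.3 to −0.075 and LHCB1.2 to −0.198, both still called. Among the genes with values given here, RVE1, RVE5, BOA, FKF1, LUX, ELF3, LNK1, LNK2, LNK3, CKA1, CKA2, CKA3, CBF3 and LHCB1.3 overlap a gene on the other strand, and are uncertain if reads were counted without regard to strand. These overlaps run from 5 exonic bases in LNK3 to 698 in LUX and 1679 in BOA.

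**Figure D3:**
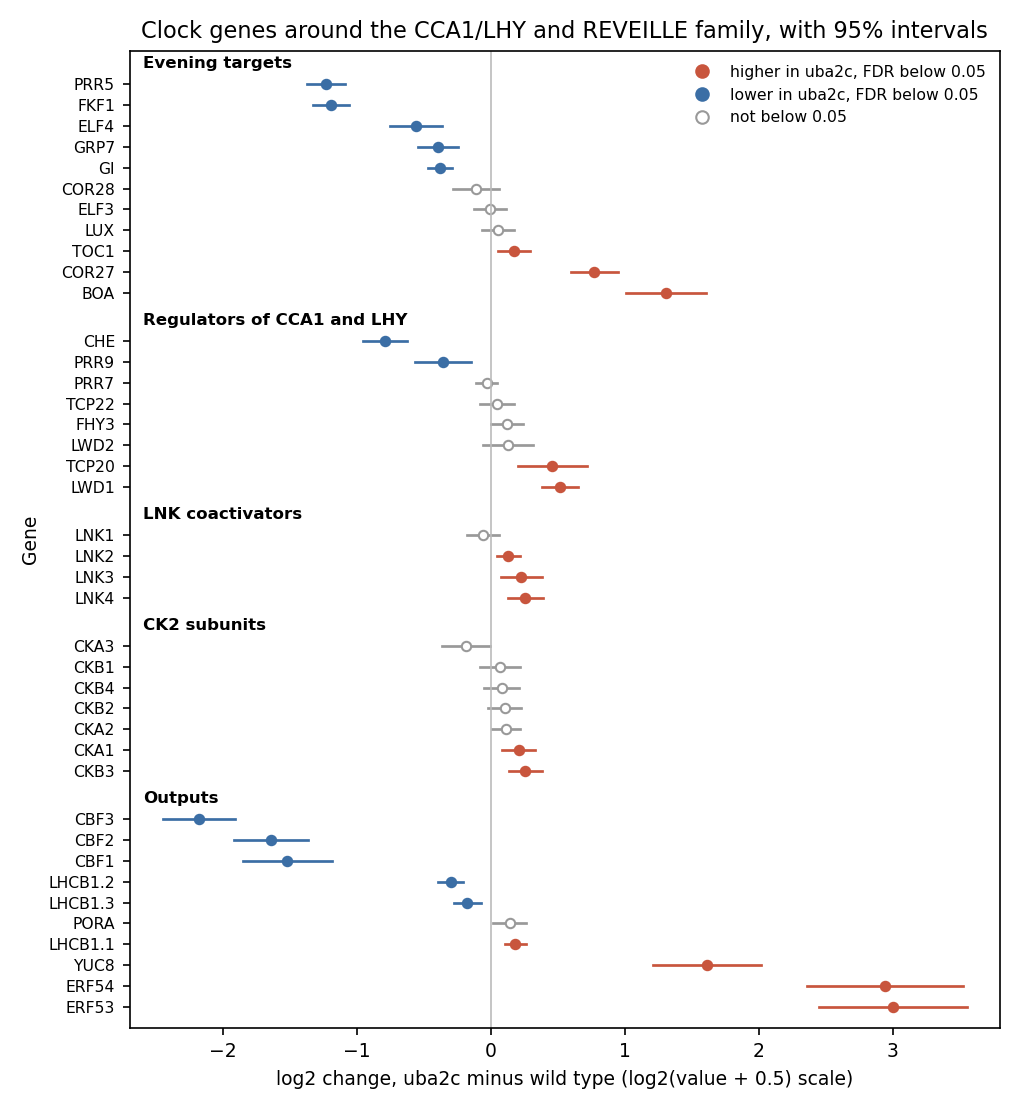
Log2 change (uba2c minus wild type, n = 2 libraries each) with 95% intervals for 5 lists of clock genes around the family, in red where higher, blue where lower and open where the limma adjusted p was not below 0.05. Evening targets and outputs spread to both sides of 0, from −2.18 for CBF3 to 3.005 for ERF53, while the LNK and CK2 genes lie within 0.26 of 0.

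The calls held across most ways of processing. Each of the 7 members that rose kept a positive change in all 21 alternatives. CCA1, LHY, RVE1, RVE2, RVE3 and RVE4 kept their call in 19 of 21 and RVE8 in 17. In limma without either mutant library no gene at all was called (7513 and 7412 genes had an unadjusted p under 0.05, and edgeR called 5828 and 6492), so every limma call given here needs both mutant libraries. edgeR then still called 6 and 7 of the 10 members.

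**Figure D4:**
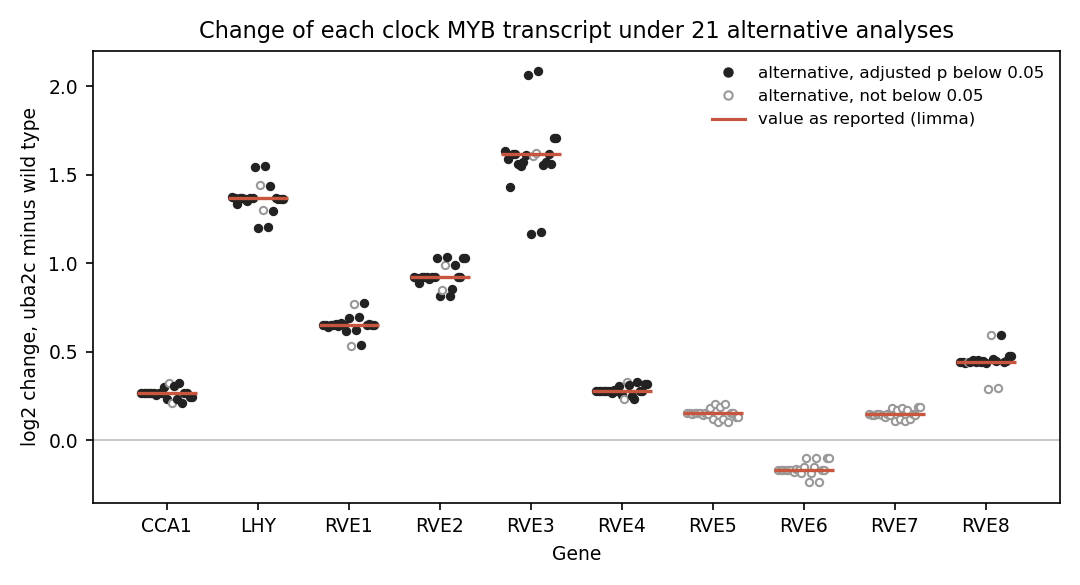
Log2 change of each member under 21 alternative analyses (points, filled where the adjusted p was below 0.05) beside the reported limma value (red bar). All points keep the sign of the bar, and RVE3 spreads most, from 1.17 to 2.08.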

How the data were processed

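The submitters' processing notes name the TAIR10 build and, as tools, HISAT2, featureCounts, edgeR, FastQC and SAMtools 1.9, but no settings. Each gene has a deposited signal value, which by its values is a read count scaled so that libraries match in size (how is not stated). They match edgeR's quantile-adjusted pseudo-counts made within each genotype: inverting these gave a whole number of reads for 100% of values in each library, within 0.001. Replicates differed by more than sampling noise (chi-square over its degrees of freedom 1.49 and 1.97) and were kept apart. The labels do not say whether libraries came from separate plants, so the spread behind each p-value is that among these libraries and may be technical.

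The main test was limma 3.58.1 (R 4.3.3, mean-variance trend) on log2(value + 0.5) of genes that reached a value of 1 in 2 or more libraries, with genotype as the single term, two-sided, adjusted over all genes by Benjamini-Hochberg. That scale understates changes of low genes. edgeR 4.0.16 and DESeq2 1.42.0 on the recovered reads, limma-voom, other pseudocounts, filters and scalings, left-out libraries, a replicate block and a GC and length correction (mgcv 1.9.3) were alternatives. The scripts were tested on simulated data, with 50 changed genes at each fold. There limma recovered 2% of genes changed 1.25-fold, 24% at 1.5-fold and 78% at 2-fold. edgeR recovered 60%, 90% and 100%. Of unchanged genes limma called 0 and edgeR 5. In such data limma thus missed most small changes, so a gene that did not pass may still differ. Sequences and gene models are from RefSeq TAIR10.1, which matched all 32548 identifiers. The table holds 0 columns of other samples.

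Members, lists and tests were chosen with earlier results of these data known. All members, UBA2C, RVE7L, up to 4 genes of each list by p and the 3 genes most like the member with the largest change are named by rule; other genes named are further list members, chosen after their values were seen.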

Additional observations from a re-analysis of the deposited data

How the results depend on the processing

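None of the genes named from the lists that were called reversed direction in the 21 alternatives; directions of the other genes were not compared. The count of genes called was 7809 as reported, and DESeq2 gave 4804. Leaving out 1 library gave 0 to 6519 genes in limma and 5828 to 7251 in edgeR. Over both tools it put the members called between 0 and 7, evening targets between 0 and 8, regulators between 0 and 4, LNK genes between 0 and 3, CK2 subunits between 0 and 3 and outputs between 0 and 9. The low end of each of these ranges over both tools came from limma without a mutant library. In both tools, a library left alone in its group is assumed to vary like the other group. Why limma called no gene without a mutant library was not tested. The difference in the LHY to CCA1 ratio (log2) lay between 0.97 and 1.24 with 1 library left out. DESeq2 called 2 regulators and 1 LNK gene. CK2 subunits called numbered 1 with no filter on low values, 4 after the GC and length correction, 5 when that was joined to the replicate block, and 4 with the replicate block in edgeR. The repeat numbers of the labels did not pair the libraries (correlation of same-numbered deviations 0.02 over 16851 genes). With the replicate block limma called 8025 genes and edgeR 9404, with 7 members called in each, and the block changed no member's call. Depth limits RVE3 most, with 16 to 69 reads per library.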

Other observations

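Over the 4 libraries, the genes whose centred log2 values lay closest to those of RVE3 among 16851 genes with a mean value of at least 50 were AT1G50790, AT5G44582 and RD20, at Euclidean distances of 0.27, 0.30 and 0.38. RD20, a drought-induced calcium-binding protein gene, was at 328 and 247 in wild type and at 790 and 772 in uba2c. The same search for LHY, added after its values were seen, gave SAUR22, an auxin-induced growth gene, XTH15, a cell wall enzyme gene, and AT3G49160, at distances of 0.09 to 0.12. SAUR22 was at 132 and 105 in wild type and at 313 and 335 in uba2c, and XTH15 at 199 and 167 and at 472 and 477. With 4 libraries in 2 groups such likeness mostly shares the genotype difference, and it is given as a description.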
